A study of Mus musculus with 100 samples.

Results

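The genes described here are 9 members of the NRF2 and glutathione defence: Nfe2l2, Slc7a11, Gclc, Gclm, Gpx2, Txnrd1, Srxn1, Nqo1 and Hmox1. They were taken by symbol, all 9 were found among the 24206 named genes, and all 9 were among the 12974 genes tested. NRF2, the product of Nfe2l2, is the transcription factor that switches on antioxidant and detoxifying enzymes. In unstressed cells KEAP1 hands it to a CUL3 and RBX1 ubiquitin ligase for degradation, and when it escapes it pairs with a small MAF protein on antioxidant response elements of its target genes. Mediator carries the signal of such activators to RNA polymerase II, and its tail subunit MED16 is known as a partner of NRF2. TFIID is the factor that binds core promoters, and SAGA is a coactivator with an acetyltransferase (GCN5) and a deubiquitinase (USP22).

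Messenger RNA of V6.5 mouse embryonic stem cells was measured in 100 libraries, 2 for each of 47 short hairpin (shRNA) knockdowns and 3 groups given a control plasmid. All groups shared the culture (serum, LIF and 2-mercaptoethanol, on feeders that were depleted before transfection), 1.8 µg of plasmid, and puromycin from 24 h for 72 h. The control labels define 3 sets: set A, with control_A, has 15 knockdowns of TFIID subunits and 5 of tail subunits (Med25, Med24, Med23, Med16 and Med15), set B, with control_B, has 23 other Mediator knockdowns together with Gcn5 and Usp22, and set C, with control_C, has Med1 and Med14. The labels name 1 knocked-down gene per group and do not say that the 2 libraries came from separate cultures, so a p-value here covers the scatter among these libraries alone, which may be technical.

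Values are RPKM, reads scaled by transcript length and library size, and fold changes are on the log2(RPKM + 1) scale with their standard errors. RPKM are shares of a library, so they show changes relative to the other genes and not changes of total RNA. Library depth, recovered from the steps of the RPKM values, was 17.25 to 39.32 M reads with a median of 23.32. Over the 100 libraries this gave a median of 11942 reads for Txnrd1, 838 for Slc7a11 and 99 for Gpx2, the least covered member. In set B every targeted gene fell in its own knockdown, from -0.53 for Med18 to -2.33 for Kat2a, the gene of GCN5. In the replicate 2 libraries of set A each tail target was lower in its own library than in the other 4 tail libraries, and Med16 was at 2.35 RPKM in shMed16. Several replicate 1 libraries of set A go against their labels. As an example, Med24 was 14.7 RPKM in the library labelled shMed24 replicate 1, where Med16 was 1.54. For this reason set A is described from replicate 2, which leaves 1 library per knockdown. The levels of the TFIID targets in their own replicate 2 libraries are not given here, so those labels are taken as they stand. In the libraries labelled shMed1 and shMed14 the targets were not called lower than in control_C (adjusted p 0.961 and 0.991, limma). As these are bulk libraries, fewer cells of a type and less RNA per cell cannot be told apart. Among markers of the labelled cell type, none of 7 pluripotency genes was at 0 throughout any set, and the same held for 9 trophectoderm and 9 primitive endoderm genes.

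Promoter windows of 300 bases, from 250 before to 50 after the RefSeq start (GRCm38.p6), were held for 7 members, in 9 windows; Gclc and Hmox1 had none in the table. The antioxidant response element was searched on both strands as TGACNNNGC and as TGAGNNNGC, and the TATA box as TATAAA. Of all 32851 windows in the table, 12.4% held TGACNNNGC, 17.6% held TGAGNNNGC and 13.6% held TATAAA. Among the 9 member windows, 4 held the first (Nfe2l2, Gclm, Srxn1 and 1 of 3 Txnrd1 starts), 2 the second (Srxn1 and Slc7a11) and 1 the third (Nqo1). A match is a run of letters and was not tested as a binding site. The 4 windows below belong to the members that the results turn on, with the matches in capitals. Srxn1 lies at chr2:152105274-152105573, + strand, Nqo1 at chr8:107403156-107403455, - strand, Slc7a11 at chr3:50443564-50443863, - strand, and the Txnrd1 start with a match at chr10:82858956-82859255, + strand.

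Srxn1: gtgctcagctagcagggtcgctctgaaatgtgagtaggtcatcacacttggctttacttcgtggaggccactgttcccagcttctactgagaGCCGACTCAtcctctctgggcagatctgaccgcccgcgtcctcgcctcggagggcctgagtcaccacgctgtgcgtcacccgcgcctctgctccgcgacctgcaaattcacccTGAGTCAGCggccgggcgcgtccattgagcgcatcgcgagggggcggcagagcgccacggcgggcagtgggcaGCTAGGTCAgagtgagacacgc

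Nqo1: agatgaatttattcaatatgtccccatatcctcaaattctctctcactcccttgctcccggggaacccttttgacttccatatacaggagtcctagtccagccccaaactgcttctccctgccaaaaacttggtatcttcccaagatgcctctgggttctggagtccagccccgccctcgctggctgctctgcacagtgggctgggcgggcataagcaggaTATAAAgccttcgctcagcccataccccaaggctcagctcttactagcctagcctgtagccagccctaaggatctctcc

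Slc7a11: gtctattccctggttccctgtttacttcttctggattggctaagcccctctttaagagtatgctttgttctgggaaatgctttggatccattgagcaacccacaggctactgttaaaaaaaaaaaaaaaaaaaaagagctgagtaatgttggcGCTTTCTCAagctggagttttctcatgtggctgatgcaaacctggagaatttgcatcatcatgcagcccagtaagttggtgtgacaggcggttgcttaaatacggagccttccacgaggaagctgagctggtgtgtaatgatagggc

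Txnrd1: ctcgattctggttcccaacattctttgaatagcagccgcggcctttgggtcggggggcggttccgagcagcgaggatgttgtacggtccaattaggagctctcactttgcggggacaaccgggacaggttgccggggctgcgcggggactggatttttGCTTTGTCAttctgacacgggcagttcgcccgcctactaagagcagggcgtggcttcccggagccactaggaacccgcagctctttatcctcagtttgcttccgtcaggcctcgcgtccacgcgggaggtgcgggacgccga

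Counted from the start, Srxn1 held 3 matches: TGAGNNNGC at -158 to -150 and at -45 to -37, and TGACNNNGC at 28 to 36. Nqo1 held no element in this window and a TATA box at -29 to -24. In Slc7a11 the match was TGAGNNNGC at -97 to -89, and in Txnrd1 it was TGACNNNGC at -92 to -84. Gpx2, whose level moved most widely among the members, held none of the 3 motifs.

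The first question was how the 9 genes responded when single subunits of Mediator (23 knockdowns) or SAGA (2 knockdowns) were lowered. These are the 25 knockdowns of set B, 2 libraries each, all against the same 2 control_B libraries. Nqo1, Srxn1, Hmox1, Gclc and Txnrd1 were called lower in most of these knockdowns, and Gpx2 and Gclm in fewer. The cystine transporter gene Slc7a11 was called higher in 10, and Nfe2l2 itself was not called in 20. Of the 225 pairs of member and knockdown, 112 were lower (49.8%) and 21 higher (9.33%) at an adjusted p under 0.05 (limma, Benjamini-Hochberg over all genes). Over all genes tested in the same comparisons 15% were lower and 15.6% higher. The median log2 fold change was -0.11 over the members' pairs and -0.00 over all genes. Nqo1 was called lower in 21 of 25 knockdowns, Srxn1 in 20, Hmox1 in 18, Gclc and Txnrd1 in 15, Gpx2 in 10, Gclm in 9, Nfe2l2 in 3 and Slc7a11 in 1. As a background, 0.84% of all tested genes were called lower in at least as many knockdowns as Nqo1, 1.15% as Srxn1, 2.01% as Hmox1 and 4.32% as Gclc or Txnrd1. That share was 13% for Gpx2, 16% for Gclm, 42.5% for Nfe2l2 and 66.5% for Slc7a11, while 14.4% of genes were called higher in at least as many knockdowns as Slc7a11 (10). The comparisons share their control pair, so the knockdowns are not independent of each other. Counts of libraries beyond both controls, given below, rest on that pair as well and come without a share over all genes.

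**Figure D1:**
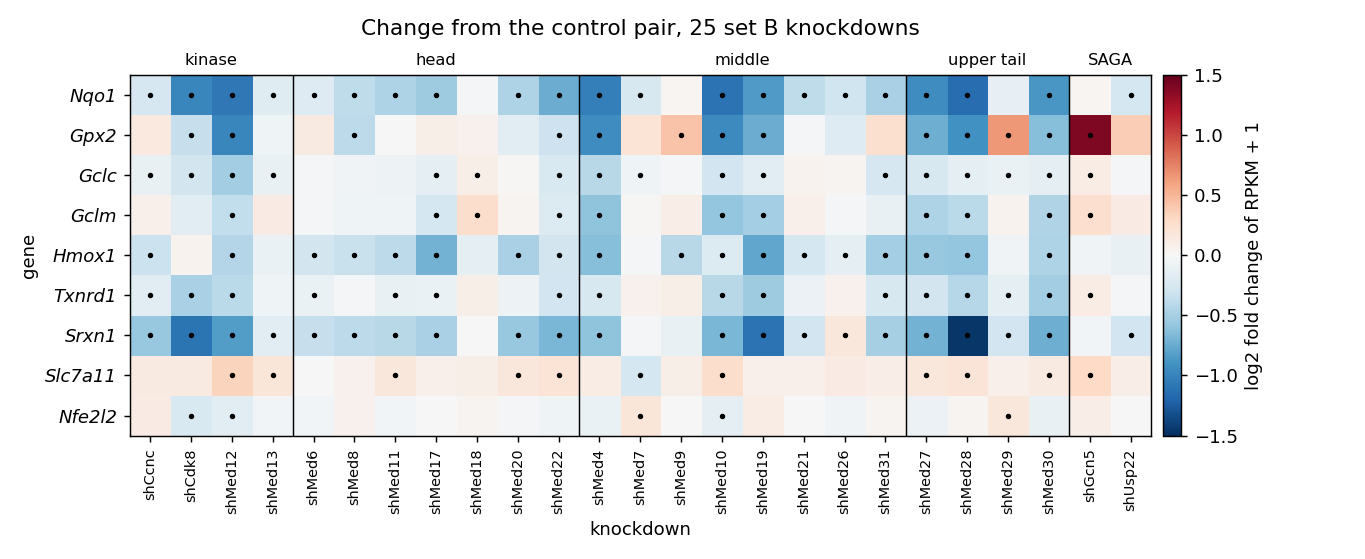
Log2 fold change of RPKM + 1 against control_B for the 9 genes (rows) in the 25 set B knockdowns (columns, grouped by module), with a dot where the adjusted p is under 0.05. Nqo1, Srxn1 and Hmox1 are blue across most columns, Gpx2 is dark red in shGcn5, and the Nfe2l2 row is nearly white.

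How far these calls depend on the libraries was as follows. Of the 133 calls, 109 held when either replicate of the knockdown was left out in turn, and 0 changed sign. Without control_B replicate 2, 105 pairs were lower and 13 higher. When all 100 libraries entered 1 fit, whose spread includes sets A and C, 39 pairs were lower and 2 higher, where 3.81% and 4.44% of all genes were. The calls that held in that fit included 9 of Srxn1, 8 of Hmox1, 7 of Nqo1, 6 of Txnrd1 and 6 of Gpx2. With the mean of the other 24 knockdowns as the reference in place of control_B, 71 pairs were lower and 82 higher (19.2% and 19.1% of all genes). Against that reference the changes of each gene cancel out over the knockdowns, so this count cannot show which direction prevails.

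Nfe2l2 encodes NRF2. It was 30.0 and 29.6 RPKM in the 2 control_B libraries, and its knockdown means ran from 25.2 to 33.8 RPKM with a median of 29.6. The lowest value was in shCdk8 (25.3 and 25.1 RPKM, log2 fold change -0.23 ± 0.05, adjusted p 0.0010, limma), and shMed12 (-0.17) and shMed10 (-0.14) were called lower as well. shMed7 (0.18) and shMed29 (0.17) were called higher. In the other 20 knockdowns Nfe2l2 was not called, and 0 of its 5 calls held in the fit of all 100 libraries. The measurement is of the message and not of the NRF2 protein.

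Slc7a11 encodes the xCT subunit of the transporter that brings in cystine, the source of cysteine for glutathione. It was expressed at a low level, 3.17 and 3.22 RPKM in control_B. Its knockdown means ran from 2.49 to 4.29 RPKM with a median of 3.57. Of the 50 knockdown libraries, all set against this same control pair, 47 lay above both controls. It was called higher in 10 knockdowns, most in shMed12 (4.36 and 4.21 RPKM, 0.33 ± 0.05, adjusted p 7.31e-07, limma) and shGcn5 (4.02 and 4.31 RPKM, 0.30). The single lower call was in shMed7, with 2.40 and 2.58 RPKM, below both controls (-0.27 ± 0.05, adjusted p 4.38e-05, limma). Slc7a11 was the 1 member with more higher than lower calls, and its levels over the 25 knockdowns were weakly and negatively related to those of Nqo1 (r = -0.36).

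Gclc and Gclm encode the catalytic and the modifier subunit of glutamate-cysteine ligase, the first and limiting step of glutathione synthesis. Gclc was 34.7 and 33.9 RPKM in control_B, with knockdown means from 23.6 to 37.1 RPKM. It fell most in shMed12 (23.6 and 23.7 RPKM, -0.52 ± 0.03) and shMed4 (25.4 and 25.5 RPKM, -0.42), the 2 calls that also held in the fit of all 100 libraries. Gclm was 59.8 and 54.9 RPKM in control_B, with knockdown means from 37.3 to 69.3 RPKM. It fell most in shMed4 (38.3 and 36.3 RPKM, -0.61 ± 0.07) and shMed10 (40.4 and 35.8 RPKM, -0.58). Both subunits were called higher in shGcn5 (0.11 for Gclc, 0.26 for Gclm) and in shMed18 (0.09 for Gclc, 0.27 for Gclm). The standard error of Gclm (0.07) exceeded that of Gclc (0.03), and its 2 control libraries lay further apart.

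Gpx2 encodes a glutathione peroxidase that reduces hydroperoxides with glutathione. It was 3.67 and 3.83 RPKM in control_B and spread from 1.42 to 11.6 RPKM over the knockdown means, the widest relative range of the 9 genes. Lowering Gcn5 gave 10.7 and 12.4 RPKM, above every other set B library (1.40 ± 0.11, adjusted p 1.87e-11, limma). shMed29 gave 6.04 and 6.87 RPKM (0.65) and shMed9 gave 5.52 and 5.28 RPKM (0.43), both called higher. At the other end shMed12 gave 1.29 and 1.54 RPKM (-0.98 ± 0.11), shMed10 gave 1.45 and 1.46 RPKM (-0.95), shMed4 gave 1.60 and 1.38 RPKM (-0.93) and shMed28 gave 1.72 and 1.36 RPKM (-0.91). Gpx2 shares sequence with the pseudogene Gpx2-ps1, whose level followed it over the 25 knockdowns (r = 0.96). No source used here says how reads were divided between the pair.

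Txnrd1 encodes the cytosolic thioredoxin reductase, and it was the most abundant member at 187 and 183 RPKM in control_B. Its knockdown means ran from 128 to 199.8 RPKM. shMed19 gave 129.6 and 125.7 RPKM (-0.53 ± 0.03) and shMed30 gave 130.4 and 127.1 RPKM (-0.52), the lowest of the 25. shCdk8 gave 133 and 132 RPKM (-0.48 ± 0.03). The 1 higher call was in shGcn5 (202.5 and 197 RPKM, 0.11).

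Srxn1 encodes sulfiredoxin, which repairs overoxidised peroxiredoxins. It was 43.8 and 42.9 RPKM in control_B, and 46 of the 50 knockdown libraries, all set against this same pair, lay below both. shMed28 gave 15.1 and 15.2 RPKM, the lowest of all (-1.46 ± 0.04, adjusted p 8.44e-25, limma). Next came shMed19 with 20.3 and 18.8 RPKM (-1.11) and shCdk8 with 19.9 and 19.8 RPKM (-1.09). The 1 higher call was in shMed26, at 47.9 and 50.0 RPKM (0.17 ± 0.04). All 21 calls of Srxn1 held when either replicate of the knockdown was left out, and Nqo1 kept 19 of 21.

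Nqo1 encodes the quinone reductase that is the standard readout of NRF2 activity. It was 59.2 and 61.1 RPKM in control_B, and the knockdown means ran from 26.7 to 61.2 RPKM with a median of 43.3. The lowest were shMed28 (26.8 and 26.5 RPKM, -1.14 ± 0.05), shMed10 (28.2 and 26.7 RPKM, -1.10), shMed12 (27.7 and 28.5 RPKM, -1.07) and shMed4 (29.1 and 29.0 RPKM, -1.02). The knockdowns in which it was not called were shMed18, shMed9, shMed29 and shGcn5, with changes from -0.12 to 0.02. In shCdk8 it was 28.5 and 31.7 RPKM (-0.98 ± 0.05, adjusted p 2.7e-15, limma), while shCcnc, the cyclin partner of CDK8, gave 48.2 and 52.9 RPKM (-0.25).

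Hmox1 encodes heme oxygenase 1, which breaks down heme and is held down by the repressor BACH1. It was 86.0 and 84.6 RPKM in control_B, and 48 of the 50 knockdown libraries, all set against this same pair, lay below both. The lowest were shMed19 (48.9 and 49.7 RPKM, -0.78 ± 0.05) and shMed17 (53.6 and 49.7 RPKM, -0.71). In shCdk8 Hmox1 was 90.6 and 85.9 RPKM (0.05 ± 0.05, adjusted p 0.617, limma), so that knockdown gave lower Nqo1, Srxn1 and Txnrd1 without a call for Hmox1.

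**Figure D2:**
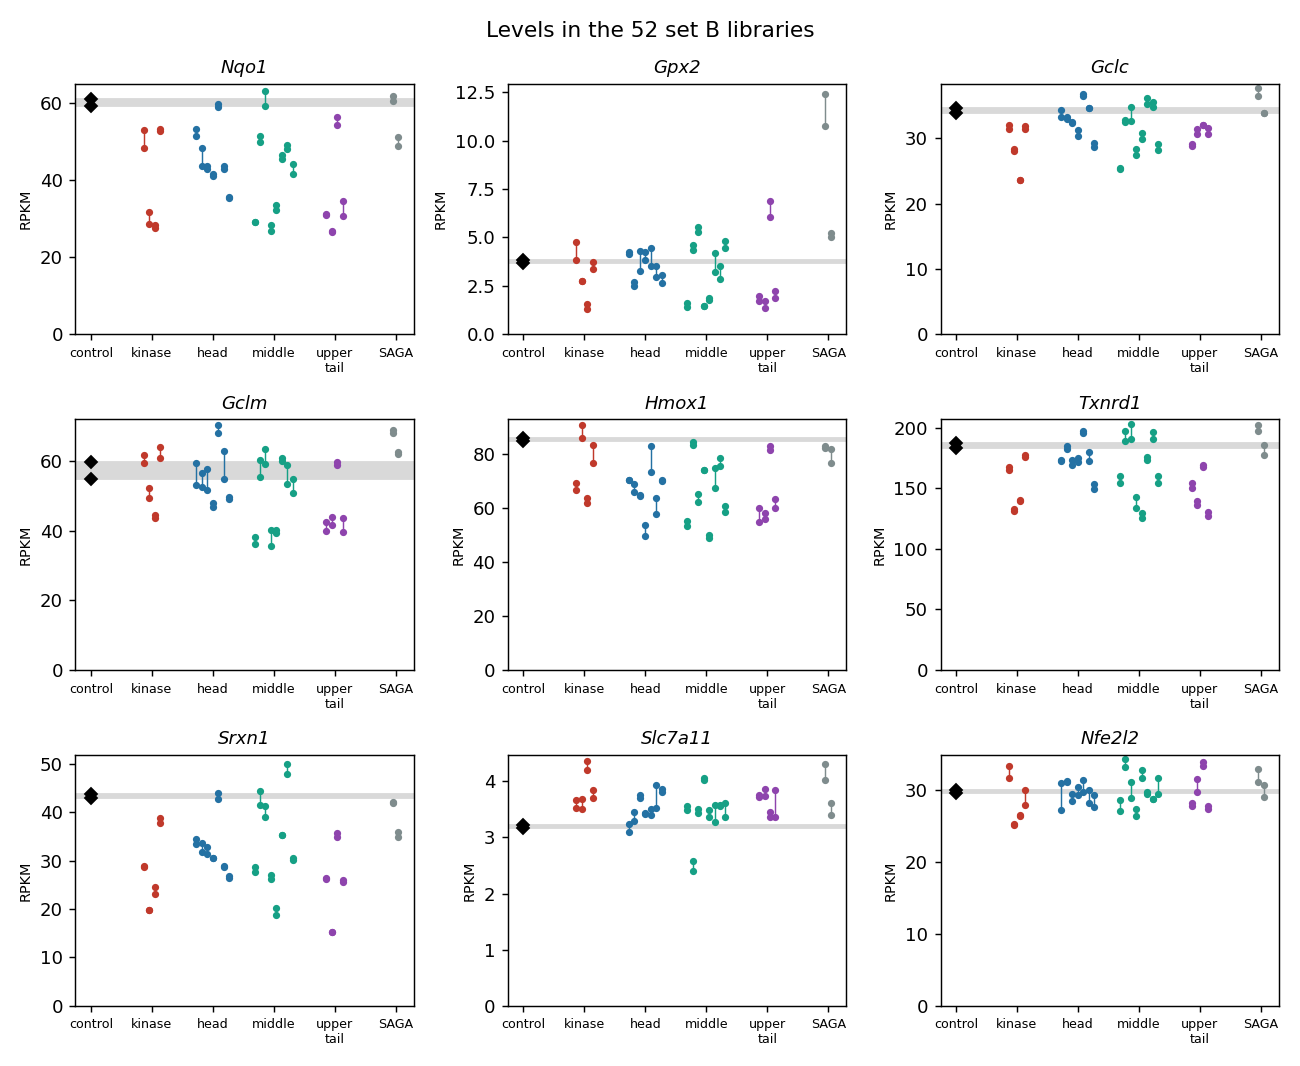
RPKM of the 9 genes in the 52 set B libraries, with the 2 control libraries as diamonds and a grey band between them, and each knockdown as 2 joined points (its 2 libraries) under its module. The 2 libraries of a knockdown lie close together compared with the spread between knockdowns, and most points of Nqo1, Srxn1 and Hmox1 lie under the grey band.

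By module, 24 of 36 pairs were lower in the 4 upper tail knockdowns (Med27 to Med30, 66.7%) and 22 of 36 in the 4 kinase module knockdowns (61.1%). In the 8 middle knockdowns it was 36 of 72 (50%), in the 7 head knockdowns 28 of 63 (44.4%), and in the 2 SAGA knockdowns 2 of 18 (11.1%), where 5 of 18 were higher. Of all genes tested in the same knockdowns, 19.1% were lower in the upper tail, 14% in the kinase module, 19.6% in the middle, 10.2% in the head and 7.1% in SAGA, where 11.2% were higher. Knockdowns within a module differed. In the upper tail shMed27, shMed28 and shMed30 each had 7 members lower and shMed29 had 3, and in the kinase module shMed12 had 8, shCdk8 6, shCcnc 5 and shMed13 3. Of all genes, 16.6%, 27%, 25.4% and 7.33% were lower in these upper tail knockdowns, in that order. The shares in the kinase module were 31.1%, 6.28%, 7.22% and 11.5%, in the order given. Nqo1 was 31.2 and 31.0 RPKM in shMed27, 30.6 and 34.5 RPKM in shMed30, but 54.2 and 56.4 RPKM in shMed29. The kinase module was compared with the head and middle modules with the knockdown as the unit (4 against 15). No gene was called in either direction by limma (0% of those tested in each), with 390 genes and 0 members at an unadjusted p under 0.05. The largest member difference there was -0.26 ± 0.18 for Srxn1.

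The knockdowns with 7 or more of the 9 members lower were shMed4, shMed10, shMed12, shMed19, shMed22, shMed27, shMed28 and shMed30. Most of these also changed many genes: 33.4% of all genes were lower in shMed10, 31.7% in shMed4 and 31.1% in shMed12. Over the 25 knockdowns the number of members lower followed the number of genes lower (r = 0.69, a description over knockdowns that share 1 control pair). shCdk8 and shMed22 stood apart from that pattern, with 6 and 7 members lower but 6.28% and 11.2% of all genes lower. shMed7 stood apart in the other direction, with 25.3% of genes lower and 3 members lower, where Nqo1 was 49.9 and 51.6 RPKM and Srxn1 41.5 and 44.3 RPKM. In shGcn5 5 members were higher and 0 lower (limma; 6 and 0 at an unadjusted p under 0.05), where 20.1% of all genes were higher and 12.4% lower. In shMed18, which had the smallest fall of its own target in set B (-0.53), 2 were higher and 0 lower (limma; 3 and 1 at an unadjusted p under 0.05), where 3.75% of all genes were higher and 4.73% lower.

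Markers of cell state moved with these results. The summed level of 7 pluripotency genes was 1019 to 1051 RPKM in control_B and 459 to 1042 RPKM in the set B knockdown libraries. The sum of 9 trophectoderm genes was 132 to 137 RPKM in control_B and 137 to 711 RPKM in the knockdown libraries, highest in shMed12. Most of that sum was Krt8 and Krt18, with means of 44.99 and 66.67 RPKM in control_B. Cdx2 was called lower in shCcnc, shCdk8, shGcn5, shMed6, shMed11, shMed20, shMed21, shMed22 and shMed31, and higher in shMed4, shMed7, shMed10 and shMed26. In shMed12 Cdx2 was not called (-0.09, adjusted p 0.542, limma), while Gata3 (1.90), Tead4 (0.72) and Tfap2c (0.81) were higher. Of the pairs of trophectoderm gene and knockdown, 68.5% were higher, and 67.4% of the pluripotency pairs were lower. Over the 25 knockdowns, Gclm (r = -0.85), Gclc (r = -0.78) and Nqo1 (r = -0.74) ran opposite to the trophectoderm sum, and Srxn1 did so less closely (r = -0.54). Primitive endoderm genes, by contrast, were lower in 24% and higher in 22.2% of their pairs. The 10 fibroblast genes summed to 38.1 to 71.9 RPKM in the knockdown libraries and 45.5 to 45.7 RPKM in control_B. Most of the control_B sum was Fn1, with a mean of 42.72 RPKM there. Fbln2 came next at 1.16 RPKM, and Col1a1 was at 0.39 RPKM. In shCdk8 the pluripotency sums were 1032 and 1013 RPKM and the trophectoderm sums 166 and 161 RPKM, against 132 to 137 RPKM in control_B, while Nqo1, Srxn1 and Txnrd1 were lower there by -0.98, -1.09 and -0.48. Among the trophectoderm genes, Krt8 (0.38, adjusted p 0.0020, limma) and Krt18 (0.31, adjusted p 0.0015) were higher in shCdk8 and Cdx2 was lower (-0.56, adjusted p 0.0010). The part of cell state in the members' changes was not tested in any knockdown.

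The members varied together. Over the means of the 25 set B knockdowns Nqo1 and Gclm had r = 0.91, Txnrd1 and Srxn1 0.89, Nqo1 and Txnrd1 0.87, Nqo1 and Gpx2 0.87 and Nqo1 and Srxn1 0.84. Hmox1 was the loosest of the enzymes, with r = 0.47 to Nqo1 and 0.63 to Gclm. Nfe2l2 had r = 0.60 to Nqo1 and 0.05 to Hmox1. Slc7a11 was negatively related to all 8 other members (-0.13 to -0.49). Among all 12974 tested genes, the genes whose pattern was most like Gclm were Cbr3 (0.93), another NRF2 target, then Nqo1 and Cnbp (0.91). Most like Nqo1 were Gclm and Pgd (0.89), an enzyme of the pentose phosphate pathway that supplies NADPH. For Srxn1 they were Txnrd1, Nqo1 and Rngtt (0.79), and for Txnrd1 Srxn1, Nqo1 and Pgd (0.83). Gpx2 was followed by Gpx2-ps1, Nqo1 and Polr3gl (0.87), and Gclc by Particl (0.84), Hsf2 (0.84) and Hmga1 (0.83). Hmox1 was followed by Eif6 (0.78), 2700062C07Rik (0.78) and Psma5 (0.78). Slc7a11 was most like Tead2 (0.89), Tyro3 (0.85) and Serping1 (0.85), and Nfe2l2 most like Ppp2ca (0.78), Rad21 (0.71) and Ptgr1 (0.71). The points of each r share 1 sequencing set and 1 control pair, and no p is given.

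**Figure D3:**
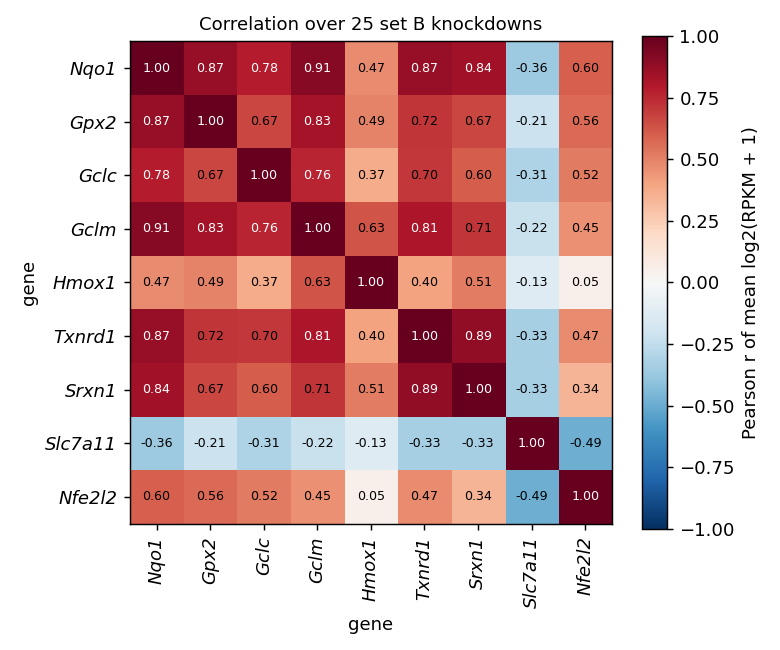
Pearson correlation between the 9 genes of the mean log2(RPKM + 1) over the 25 set B knockdowns, with r printed in each cell. Nqo1, Gpx2, Gclm, Txnrd1 and Srxn1 form a red block, Hmox1 is paler, and the Slc7a11 row is blue.

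Other genes of the pathway did not share 1 direction. Of 11 NRF2 regulators and partners tested, 26.2% of pairs were higher and 6.55% lower. Mafk, a small MAF partner of NRF2, was higher in 14 knockdowns (up to 0.84 in shMed4), and Maff in 8 (1.00 in shMed4). Rbx1, of the ligase that degrades NRF2, was lower in 9 (to -0.31 in shMed10). Keap1 was called lower in 1 and higher in 3. Bach1, the gene of the repressor BACH1, was higher in 16 (up to 0.45 in shMed10); it was named after its values were seen. Of the 20 genes of glutathione synthesis and recycling 23.4% of pairs were lower and 18% higher. Chac1, which degrades glutathione, was lower in 21 knockdowns (to -1.34 in shMed4, from a control mean of 12.2 RPKM), and Cbs, which feeds homocysteine toward cysteine, in 14 (to -1.24 in shMed10). Glrx, the gene of glutaredoxin 1, was higher in 22 from a control mean of 0.46 RPKM, where the pseudocount shrinks the fold change, and Gpx8 was higher in 9.

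Glutathione transferases were lower in 15.3% and higher in 8.67% of the pairs of 18 tested genes. Gstt2 was lower in 13 and Gstk1 in 7, and Gstm2 was higher in 12 and Gstm1 in 5. Members of the glutathione transferase family resemble each other in sequence, and how the authors' counting treated shared reads is not given. Of 11 thioredoxin and peroxiredoxin genes, Txn1 was higher in 23 knockdowns by small steps (up to 0.39 in shMed7, from 124.5 RPKM), and Prdx5 in 5. Prdx1, the most abundant peroxiredoxin in the list, was lower in 14 (to -0.54 in shMed12, from 347 RPKM), and Txnrd3 in 5. Txnrd1, the reductase of this thioredoxin, was lower in 15 knockdowns.

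Among 20 tested further NRF2 targets 29.6% of pairs were lower and 16.4% higher. Cbr3, a carbonyl reductase, was lower in 15 knockdowns, most in shMed12 (-1.95, from a control mean of 22.7 RPKM), and the exporter gene Abcc4 was lower in 21 (to -1.10 in shMed4). Abcg2, another exporter gene, was higher in 16 (up to 0.71 in shMed10), and Me1, malic enzyme, in 14 (up to 0.68 in shMed28). Slc7a11 is also a target of ATF4, the factor of the amino acid stress response, and of the 17 ATF4 targets listed 53.4% of pairs were lower and 6.12% higher. Nupr1 was lower in 15 (to -1.54 in shMed10), and Chac1, which belongs to this list as well, in 21. Atf3 was higher in 6 and Ddit4 in 9. Slc7a11, with 10 higher calls and 1 lower, went against the balance of that list.

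Set A asked the same of TFIID and of the Mediator tail, including Med16. With 1 library per knockdown there is no test against control_A, so the levels are given. Over the 20 libraries Nqo1 ran from 22.1 RPKM (shTbp) to 118 RPKM (shTaf6) with a median of 42.2, against 42.8 and 53.6 RPKM in control_A. Srxn1 ran from 14.8 (shMed25) to 60.9 RPKM (shTaf6) with a median of 31.6, against 36.5 and 38 RPKM. Only 3 of 180 pairs had a log2 ratio to control_A of -1 or less (Nqo1 in shTbp and shMed25, Srxn1 in shMed25), where 0.304% of all genes did. A ratio of 1 or more occurred once (Nqo1 in shTaf6), also against 0.304% of all genes. When both libraries of each knockdown were used in a fit of all 100 libraries, 0 pairs passed that fold in either direction. The same fit called 10 pairs lower and 2 higher at an adjusted p under 0.05 (limma), against 0.694% and 0.751% of all genes, with the libraries of doubtful label included. The 2 libraries labelled shTaf7 show why the replicates were not averaged: Nqo1 was 100.0 RPKM in replicate 1 and 42.2 RPKM in replicate 2.

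As a class, the tail knockdowns had lower levels of several members than the TFIID knockdowns (5 against 15 replicate 2 libraries, knockdown as the unit, limma). Gclc was 20.7 to 26.3 RPKM in the 5 tail libraries and 29.1 to 49.7 RPKM in the 15 TFIID libraries, and control_A was at 28.3 and 29.4 RPKM. How many of all genes separate in this way was not counted. The difference, TFIID minus tail, was 0.63 ± 0.12 (adjusted p 0.0056). Hmox1 was 50.8, 52.2, 62.6, 50.8 and 54.4 RPKM in shMed15, shMed16, shMed23, shMed24 and shMed25, and 55.7 to 95.5 RPKM with a median of 72.8 in TFIID, so the ranges overlapped slightly (0.46 ± 0.09, adjusted p 0.0094). Txnrd1 was 142, 129, 148, 131 and 106 RPKM in the same order, against 130.1 to 195 RPKM (0.31 ± 0.07, adjusted p 0.017). Srxn1 was 27.8, 20.6, 31.5, 19.2 and 14.8 RPKM, against 26.3 to 60.9 RPKM (0.59 ± 0.16, adjusted p 0.028).

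These 4 of 9 members called higher in TFIID compare with 4.22% of all genes, and 0 of 9 members were called lower (limma) where 2.43% of all genes were; at an unadjusted p under 0.05 there were 5 members, Nqo1 being the fifth. Nqo1 was 32.8, 30.3, 39.0, 25.8 and 22.2 RPKM in the tail libraries and 22.1 to 118 RPKM in TFIID (0.73 ± 0.23, adjusted p 0.063). Without the shMed25 library Txnrd1 (adjusted p 0.055) and Srxn1 (adjusted p 0.096) were no longer called, and Srxn1 also lost its call without shMed16 (0.059) or shMed24 (0.084). Without shTbp, Nqo1 was called (0.81, adjusted p 0.015), as it was without shTaf6 (0.64, adjusted p 0.049). Gclc and Hmox1 were called in all 20 fits that left out 1 library. Gclm, Gpx2, Slc7a11 and Nfe2l2 were not called (adjusted p 0.414, 0.417, 0.227 and 0.912). In the other lists Prdx1 (0.36), Gstp2 (0.61) and Ftl1 (0.44) were also higher in TFIID, and Gss (-0.31), Glrx (-0.51), Gstz1 (-0.27) and Blvra (-0.33) were lower. Among the markers, Tfap2c was lower (-0.80) and Dab2 higher (0.55) in TFIID, and the part of cell state in these differences was not tested.

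**Figure D4:**
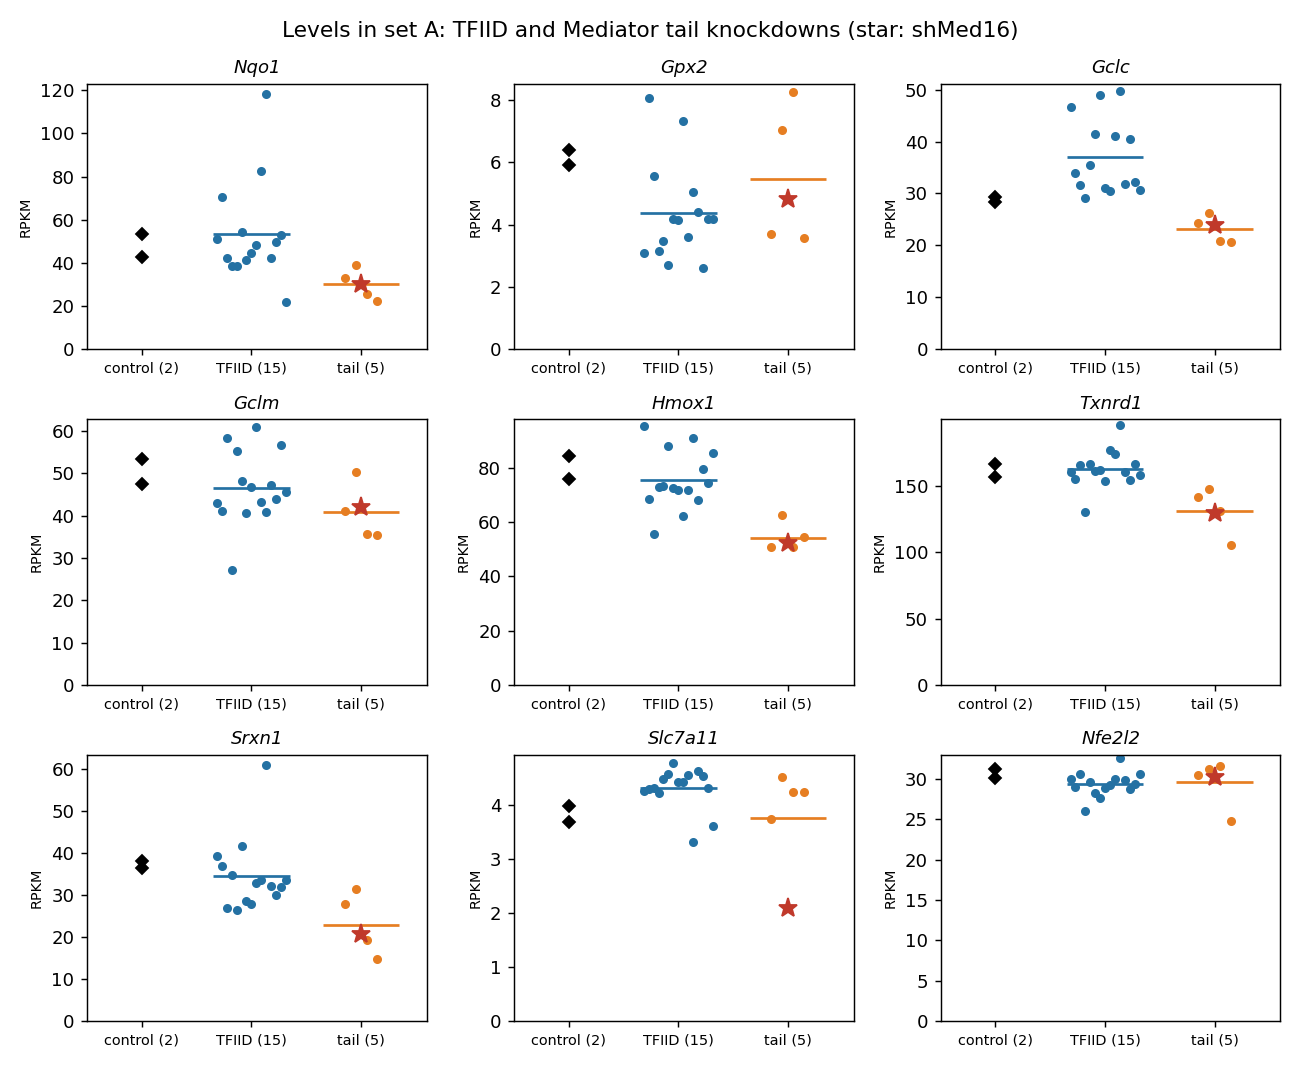
RPKM of the 9 genes in the control_A libraries (diamonds, 2), the 15 TFIID and the 5 Mediator tail replicate 2 libraries (points, with the mean as a line), with shMed16 as a star. The tail mean of Gclc lies below its TFIID mean, and shMed16 is the lowest point for Slc7a11 but sits among the other tail knockdowns for the rest.

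Med16 was then examined alone, since its product is the known NRF2 partner. In the replicate 2 library Med16 was 2.35 RPKM against 7.48 to 11.8 RPKM in the other 19 (-1.62, adjusted p 3.42e-06, limma). The 1 member called in it was Slc7a11, at 2.10 RPKM against 3.32 to 4.78 RPKM (median 4.32) in the other 19 and 3.69 and 3.98 RPKM in control_A. It was the lowest of the 20 libraries, with a log2 difference of -0.77 ± 0.12 (adjusted p 0.00027, limma). An exact two-sided permutation test over the 20 libraries gave p = 0.05, which restates that rank, since it is the smallest that 1 library against 19 can reach. Of all genes, 1.65% were called lower in this comparison and 0.224% higher.

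Nqo1, Srxn1, Hmox1, Gclc and Txnrd1 were low in shMed16, within the range of the other 4 tail libraries. Nqo1 was 30.3 RPKM, the 4th lowest of 20 (-0.54 ± 0.55), Srxn1 20.6 RPKM, the 3rd lowest (-0.56 ± 0.38), Hmox1 52.2 RPKM, the 3rd lowest (-0.41 ± 0.25), and Gclc 24.0 RPKM, the 3rd lowest (-0.45 ± 0.34). Txnrd1 was 129 RPKM, the 2nd lowest (-0.26 ± 0.19). Each of these 5 had an adjusted p of 1 (limma). Gclm (42.1 RPKM), Gpx2 (4.82 RPKM) and Nfe2l2 (30.3 RPKM) lay inside the range of the other libraries, also with an adjusted p of 1. With standard errors of 0.19 to 0.55 a change of the size seen for Srxn1 could not be told from the spread among knockdowns. Outside the members, Gstp2 was 7.37 RPKM against 17.8 to 29.2 RPKM (-1.60, adjusted p 2.43e-05) and Glrx3, an iron-sulfur glutaredoxin, 28.6 RPKM against 35.9 to 46.9 RPKM (-0.54, adjusted p 0.0027). Gstp2 has a close copy in Gstp1, so its reads may be divided between them.

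The low Slc7a11 was seen in this library and in no other with low Med16. The library labelled shMed16 replicate 1 had Med16 at 5.77 RPKM and Slc7a11 at 4.88 RPKM, and the library labelled shMed24 replicate 1, with the lowest Med16 of all (1.54 RPKM), had Slc7a11 at 4.59 RPKM. In these same libraries Nqo1 was 18.6 and 27.4 RPKM, Srxn1 23.9 and 18.6 RPKM, Hmox1 58.2 and 46.9 RPKM, and Txnrd1 121 and 128 RPKM, all under both control_A libraries. Such values were common in set A. Of its 20 replicate 2 knockdown libraries, 11 lay under both controls for Nqo1, 16 for Srxn1, 15 for Hmox1 and 9 for Txnrd1. With both libraries labelled shMed16 against control_A in the fit of all 100 libraries, Slc7a11 was not called (-0.18, adjusted p 0.372), while 4 other members were called lower, where 4.8% of all genes were lower and 3.37% higher. Those were Nqo1 (-0.98, adjusted p 0.021), Srxn1 (-0.72, adjusted p 0.0069), Hmox1 (-0.53, adjusted p 0.0044) and Txnrd1 (-0.37, adjusted p 0.023). The 2 readings of Med16 thus name different members. They differ in the reference used, the other knockdowns or the control plasmid, as well as in the libraries. The second reading takes in the library labelled shMed16 replicate 1, from the replicate 1 libraries of set A, several of which go against their labels.

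**Figure D5:**
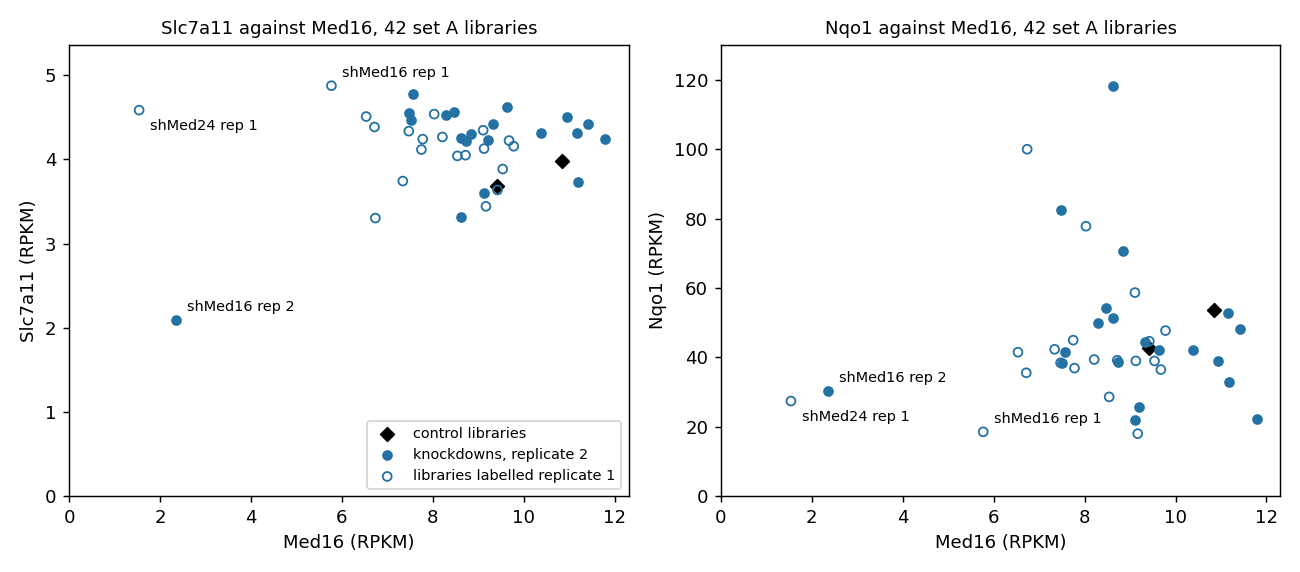
Slc7a11 (left) and Nqo1 (right) against Med16, in RPKM, in the 42 set A libraries, with controls as diamonds, replicate 2 knockdowns filled and libraries labelled replicate 1 open. The 2 libraries with Med16 under 3 RPKM have Slc7a11 at 2.10 and 4.59 RPKM, and Nqo1 at 30.3 and 27.4 RPKM.

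In set C no member was called between shMed1 or shMed14 and control_C. limma called 0% of genes lower and 0% higher in either, with 82 genes (shMed1) and 72 (shMed14) but 0 members at an unadjusted p under 0.05. Nqo1 was 28.7 and 23.4 RPKM in the libraries labelled shMed1, 26.1 and 29.8 RPKM in those labelled shMed14, and 31.3 and 30.5 RPKM in control_C. Srxn1 was 13.8 and 12.3 RPKM, 12.4 and 13.0 RPKM, and 12.8 and 12.9 RPKM. Med1 was at -0.28 ± 0.23 in shMed1 and Med14 at -0.30 ± 0.24 in shMed14, neither of them called (limma), in a fit with 3 residual degrees of freedom. The controls themselves differed between sets: Srxn1 was 36.5 and 38 RPKM in control_A, 43.8 and 42.9 RPKM in control_B and 12.8 and 12.9 RPKM in control_C. Gpx2 ran the other way, at 6.38 and 5.92 RPKM, 3.67 and 3.83 RPKM, and 8.73 and 8.93 RPKM. Levels of these genes are therefore compared only within a set.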

How the data were processed

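Each of the 100 libraries came as 1 table of RPKM per RefSeq transcript, deposited by the authors. Reads were aligned with TopHat2 to mm9, per the submitters' processing notes, from a stranded mRNA kit, per the labels' protocols. No source used here names the counting program or says whether strand was used and how multiply aligned reads were treated, choices that decide how reads shared by similar genes were divided. Of 34995 lines per table, 33561 were named from a RefSeq table (GRCm38.p6) and 193 from GENCODE, and 1241 stayed unnamed. For a gene with several transcripts, the 1 with the highest RPKM on average stood for it.

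Depth was recovered from the RPKM steps of 4648 transcripts, 100% of whose values lay within 0.05 of a whole read number. The method was tested on simulated data.

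limma 3.58.1 in R 4.3.3 was run as limma-trend on log2(RPKM + 1), after a filter that kept genes reaching 1 RPKM in 2 or more of the 100 libraries. Calls are two-sided, by p-values adjusted over all genes of a comparison (Benjamini-Hochberg, threshold 0.05). Set B was fitted on its own 52 libraries (26 residual degrees of freedom), since targets in sets A and C go against some labels. Errors beside fold changes are standard errors. The fits were tested on simulated data.

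The 9 members, the 6 pathway lists and the 4 marker lists were chosen with earlier results of these data known. From each pathway list, up to 2 genes per direction were named by mean change among those called in at least 5 of the 25 set B knockdowns, with up to 5 list genes called in shMed16, and the 3 genes most like each member by Pearson correlation, of which 1 is not reported here. List genes called between TFIID and the tail were named after their values were seen. Modules follow general knowledge of Mediator. Alternatives covered the pseudocount (0.1), the filter, scaling, summed transcripts, the reference, the fit and single libraries.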

Additional observations from a re-analysis of the deposited data

Results flagged for a closer look

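In 45 groups of member values by module, 4 values lay far from the rest of their group. Chance alone would mark about 1 in 20 groups if the groups were independent. They were not, since members varied together (Gpx2 and Gclm had r = 0.83 over the set B knockdowns), so no excess over chance is read from this count. Nfe2l2 was 24.8 RPKM in shMed25 replicate 2, the lowest of the 5 tail knockdowns. Gpx2 (6.45 RPKM) and Gclm (59.5 RPKM) were highest of the 4 upper tail knockdowns in shMed29. Slc7a11 was 2.49 RPKM in shMed7, the lowest of the 8 middle knockdowns.

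Of the members, 4 differed between the TFIID and the tail knockdowns by limma on 15 against 5 knockdowns. The log2 difference, TFIID minus tail, was 0.63 for Gclc, 0.46 for Hmox1, 0.31 for Txnrd1 and 0.59 for Srxn1.

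In the libraries labelled replicate 1 of set A, which the comparisons leave out, Nqo1 was 100.0 RPKM in the library labelled shTaf7, above the 42.8 and 53.6 RPKM of control_A.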

How the results depend on the processing

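Another pseudocount, no filter, upper-quartile scaling and summed transcripts left the set B member calls between 110 and 115 lower, with 21 higher, against 112 and 21. Leaving out single libraries of set B gave 100 to 105 lower and 13 to 18 higher. A single fit of all 100 libraries gave 39 and 2, and requiring a log2 change of 0.5 as well gave 41 and 2. The mean of the other 24 knockdowns as reference, a choice made after seeing the data, gave 71 and 82. With that reference the changes of each gene cancel out, so the balance of directions is fixed by the choice. The replicate difference of each knockdown was weakly and positively correlated with that of control_B. The correlations were 0.039 to 0.169 with a median of 0.108, over 0.1 in 16 of 25 knockdowns. Whether the replicate numbers mark a shared run was not tested. The main fit had no replicate block, and a fit with a block gave 122 lower and 29 higher. The counts with the block and with the 0.5 threshold come without a share of all genes, so they are not set against a background. In set A a pseudocount of 0.1 gave 5 pairs past the fold downward, against 3, and both libraries of each knockdown gave 0 and 0. By adjusted p that last fit called 10 pairs lower and 2 higher (limma), where 0.694% and 0.751% of all genes were. Set C against control_B gave 11 member calls lower and 5 higher, without a share of all genes beside them. That comparison crosses sets and takes in the difference between the controls, so its calls are not read as a result about the members. Srxn1, for example, was 12.8 and 12.9 RPKM in control_C and 43.8 and 42.9 RPKM in control_B. For Med16, no filter gave 110 genes higher, against 29, and both libraries against control_A gave 623 genes lower, 437 higher and 4 members lower. Leaving out 1 library moved the TFIID and tail comparison between 120 and 491 genes lower, 184 and 1019 higher, and 2 to 5 members higher; without a filter Srxn1 lost its call there (adjusted p 0.060, limma). Some members that were not called changed sign. Against the 4 other tail knockdowns shMed16 gave 0.048 for Nqo1, -0.12 for Gpx2, 0.062 for Gclc and 0.063 for Gclm. Against control_A it gave -0.30 for Gpx2 and -0.016 for Nfe2l2, and with both libraries -0.60 and -0.063. Leaving out 1 library gave -0.073 to 0.012 for Nfe2l2 in TFIID against tail, above 0 without shMed23, shMed24 or shTaf12. Leaving out 1 knockdown in kinase against head and middle gave -0.29 to 0.0096 for Nqo1 and -0.29 to 0.083 for Gpx2, both above 0 without shMed12, and -0.020 to 0.14 for Gclm, below 0 without shMed13 or shCcnc. The cause of these changes was not tested. Gpx2, with as few as 32 reads in a library, is limited most by depth.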
